A study of Mus musculus with 4 samples.

Results

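Microtubules are hollow tracks built from dimers of alpha- and beta-tubulin, and they grow and shrink as dimers are added or lost at their ends. Structural microtubule-associated proteins bind along the wall and steady it, stathmin binds free dimers and promotes disassembly, and cytoplasmic dynein walks along the track toward its minus end carrying vesicles and organelles. Exosomes are small vesicles formed inside late endosomes, which cells move along microtubules.

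The group described here holds 8 genes of 42977 in the deposited rat gene table, picked by symbol: Map4, Map1b, Tuba1a, Tuba1b, Tubb5, Stmn1, Dync1h1 and Dync1li2. All 8 were found and all passed the filter on low counts. They were proposed with their levels and group differences in these same libraries already known, so their values are given as a description and no test of them is offered. The RNA came from exosomes shed by cultured bone marrow mesenchymal stem cells (MSCs) of male SD rats aged 6 to 8 weeks, used at passages 3 to 4. Before collection the cells behind the 2 MSCATV-Exo libraries received atorvastatin (ATV) at 1 µmol/L, a statin that blocks cholesterol synthesis. Those behind the 2 MSC-Exo libraries received an equal volume of DMSO, its solvent. Both groups share the exosome-free medium and the isolation, described both as ultracentrifugation and as a commercial reagent. The pretreatment lasted 24 h by the sample characteristics and 48 h by the treatment protocol. The labels register the samples as mouse, while the animals, genome build and gene identifiers are rat. No separate animals or cultures are named behind the libraries of a group. The errors below therefore rest on the spread between libraries, which may be technical. Each SE comes from the edgeR fit, which pools information on that spread over genes. It is thus not the spread of the gene's own libraries alone.

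The gene table held 5947020 and 5598378 counts in the MSCATV-Exo libraries and 5350295 and 5355098 in the MSC-Exo libraries, and the 45S ribosomal RNA gene Rn45s alone took 16.4% to 19.1% of them. Levels are in RPKM, the authors' counts scaled by gene length and library total, and fold changes are from the edgeR fit with TMM factors, MSCATV-Exo over MSC-Exo. As a yardstick for reads in genes that MSCs are not known to use, the 1457 protein-coding rows described as olfactory receptors had a median of 1.06 and 1.82 RPKM in the MSCATV-Exo libraries and of 1.98 and 1.79 RPKM in the MSC-Exo libraries. Their 95th percentile was 8.83 and 8.92 RPKM in MSCATV-Exo and 9.28 and 9.25 RPKM in MSC-Exo. Of 22633 protein-coding genes, 693 (3.06%) stood above that percentile in all 4 libraries. Of 10 marrow stromal markers, 3 (Thy1, Itgb1 and Col1a1) did so, and Col1a2 had 0 counts in every library. Of 10 leukocyte, 6 erythroid and 7 endothelial markers found, 0 stood above it in all 4 libraries.

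Map4, Dync1li2 and Tubb5 were the most abundant of the 8 genes, the alpha-tubulin genes came next, and Dync1h1 was the lowest. Over all 4 libraries the mean level was 71.1 RPKM for Map4, 66.4 for Dync1li2, 63.5 for Tubb5, 32.7 for Tuba1a, 30.1 for Tuba1b, 13.4 for Map1b, 12.7 for Stmn1 and 6.17 for Dync1h1. The ranges of Map4, Dync1li2 and Tubb5 overlapped, as did those of Tuba1a and Tuba1b and those of Map1b and Stmn1. Within each of the 4 libraries Map4 was above Dync1li2. The values were close in MSCATV-Exo replicate 2 (84.9 and 84.5 RPKM) and MSC-Exo replicate 1 (59.0 and 58.3 RPKM). The other orders within these sets changed between libraries and are not settled. The steps between these sets, and the step down to Dync1h1, had no overlap, although the lowest Stmn1 library, at 7.84 RPKM, was close to the highest Dync1h1 library, at 7.72 RPKM. Map4 lay above 99.5% of protein-coding genes by mean RPKM and Dync1h1 above 68.1%.

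**Figure D1:**
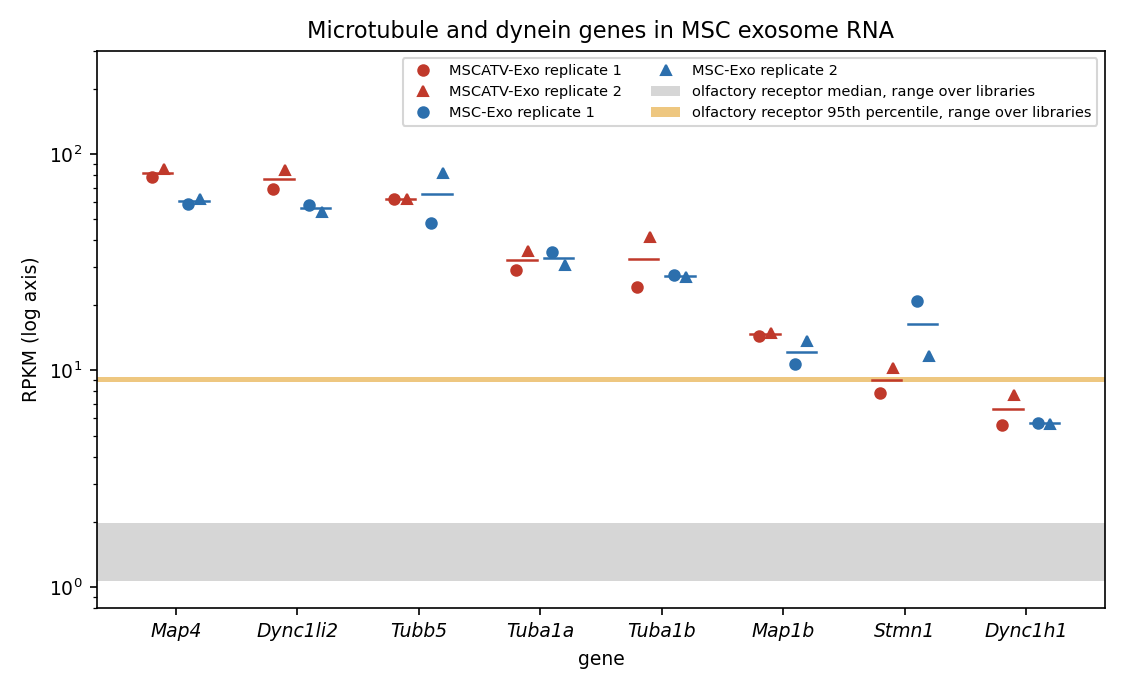
RPKM (log axis) of the 8 genes in each library, with MSCATV-Exo in red left of MSC-Exo in blue, replicate 1 as a circle, replicate 2 as a triangle and the group mean as a short line. The grey and orange bands are the range over libraries of the olfactory receptor median and 95th percentile; 6 of the 8 genes lie above the orange band in all 4 libraries, Stmn1 in 3 and Dync1h1 in 0.

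Map4 encodes the structural microtubule-associated protein found in most non-neuronal cell types. It lies on chromosome 8 at 118013584 to 118159934 (plus strand, rn6). Its counts were 6080 and 6203 in the MSCATV-Exo libraries and 4115 and 4346 in the MSC-Exo libraries, with levels of 78.4 and 84.9 RPKM in MSCATV-Exo and 59.0 and 62.2 RPKM in MSC-Exo. Both MSCATV-Exo libraries were above both MSC-Exo libraries and the groups did not overlap. The log2 fold change was 0.53 ± 0.13 (SE) with TMM factors and 0.43 with total-count scaling. In counts scaled by library size and TMM factor (CPM), the means differed 1.45-fold. They were 1109 ± 4.77 CPM in MSCATV-Exo and 767 ± 37.1 CPM in MSC-Exo (SD, n = 2 each). Leaving out any single library moved the log2 fold change with TMM factors between 0.48 and 0.58, the narrowest such range of the 8 genes. In libraries of vesicle RNA, fewer vesicles with a transcript and less of it per vesicle cannot be told apart.

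Map1b encodes a larger structural protein best known from growing axons, and it stood well below Map4 per unit length. It lies on chromosome 2 at 29675391 to 29768750 (minus strand). Map1b had 1023 and 986 counts in MSCATV-Exo and 683 and 869 in MSC-Exo, with levels of 14.5 and 14.8 RPKM in MSCATV-Exo and 10.8 and 13.7 RPKM in MSC-Exo. The groups did not overlap, but the MSC-Exo libraries lay 0.367 apart on the log2 scale, as far as the group difference of 0.37 ± 0.22 (SE). Without MSC-Exo replicate 1 the log2 fold change was 0.19, and without MSC-Exo replicate 2 it was 0.56. The lncRNA LOC108349930, on the opposite strand inside Map1b (chromosome 2, 29709598 to 29719005), had 161 and 249 counts in MSCATV-Exo and 96 and 127 in MSC-Exo. The library kit does not mark strand, so reads where these genes overlap cannot be told apart. Of 11 neuron markers, 0 stood above the olfactory receptor 95th percentile in all libraries. By sign 2 of the 11 were higher in MSCATV-Exo, beside 49.4% of all tested genes. Of the other markers tested, 3 of 9 stromal, 3 of 10 leukocyte, 2 of 4 erythroid and 3 of 7 endothelial genes were higher. The summed level of the neuron markers reached at most 52.4 RPKM in MSCATV-Exo and 57.7 RPKM in MSC-Exo.

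The 3 tubulin genes of the group were abundant and, unlike Map4, overlapped between the groups. Of 5 further alpha-tubulin genes tested, 2 were higher and 1 lower without overlap in TMM-scaled CPM. Of 6 further beta-tubulin genes tested, 0 were higher and 0 lower without overlap on that scale. Over all tested genes these shares were 16.1% higher and 17.4% lower. In RPKM, where the shares were 12.8% and 20.9%, Tuba4a overlapped between the groups and Tubb6 was lower without overlap. Tubb6 had 25.06 and 21.63 RPKM in MSCATV-Exo and 25.4 and 29.75 RPKM in MSC-Exo. Tubb5, the class I beta-tubulin of most tissues (chromosome 20, 3422448 to 3426420, plus strand), had 820 and 767 counts in MSCATV-Exo and 571 and 974 in MSC-Exo, with levels of 62.2 and 61.8 RPKM in MSCATV-Exo and 48.1 and 82.0 RPKM in MSC-Exo. Both MSCATV-Exo libraries lay between the MSC-Exo libraries, which differed by 0.79 on the log2 scale where counting error alone gives an SD of 0.0760. Its log2 fold change of 0.03 ± 0.28 (SE) ran between -0.32 and 0.48 depending on which MSC-Exo library was left out (replicate 1 for -0.32), and was -0.07 with total-count scaling, so no direction can be given.

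Tuba1a encodes an alpha-tubulin prominent in the developing brain, and Tuba1b one found in most cells. The genes are neighbours on the minus strand of chromosome 7, at 140637287 to 140640953 and 140614746 to 140617721. Tuba1a had 281 and 323 counts in MSCATV-Exo and 304 and 266 in MSC-Exo, with levels of 29.2 and 35.7 RPKM in MSCATV-Exo and 35.1 and 30.7 RPKM in MSC-Exo. The groups overlapped, and the log2 fold change was 0.08 ± 0.28 (SE), a value that was -0.02 with total-count scaling. Tuba1b had 234 and 372 counts in MSCATV-Exo and 239 and 234 in MSC-Exo, with levels of 24.4 and 41.2 RPKM in MSCATV-Exo and 27.7 and 27.1 RPKM in MSC-Exo. MSCATV-Exo replicate 2 stood apart from the other 3 libraries. The log2 fold change of Tuba1b was 0.35 ± 0.31 (SE); it was 0.0032 when that library was left out, and 0.63 when MSCATV-Exo replicate 1 was. The lncRNA LOC102556368 runs across Tuba1b on the other strand and had 22 and 10 counts in MSCATV-Exo and 53 and 36 in MSC-Exo.

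Within the tubulin families the same isotypes led in every library. Tuba1a and Tuba1b together made up 60.1% and 61.6% of the summed RPKM of 8 alpha-tubulin genes in MSCATV-Exo and 61.2% and 60.2% in MSC-Exo. Tubb5 made up 49.8% and 42.8% of the summed RPKM of 8 beta-tubulin genes in MSCATV-Exo and 44.2% and 52.1% in MSC-Exo, with Tubb6 second in both MSC-Exo libraries and in MSCATV-Exo replicate 1. In MSCATV-Exo replicate 2 Tubb4b (18.3%) was above Tubb6 (15.0%). Tuba1c and Tubb2a were nearly empty, with 4 and 0 counts for Tuba1c in MSCATV-Exo and 0 and 0 in MSC-Exo, and 2 and 6 counts for Tubb2a in MSCATV-Exo and 3 and 1 in MSC-Exo. Tubulin isotypes are close copies of each other, and 35 rows named for tubulins are pseudogenes. The 27 of them described as alpha or beta held 808 and 918 counts in MSCATV-Exo and 950 and 949 in MSC-Exo, set beside 1335 and 1462 in MSCATV-Exo and 1114 and 1474 in MSC-Exo for Tuba1a, Tuba1b and Tubb5 together. LOC103690581, described as like the alpha-1B chain, had 130 and 147 counts in MSCATV-Exo and 122 and 163 in MSC-Exo, and LOC108349969, like the alpha-1C chain, had 63 and 56 in MSCATV-Exo and 83 and 136 in MSC-Exo. How reads shared by such copies were assigned is not given in the sources used here, so the split between tubulin genes is uncertain.

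**Figure D2:**
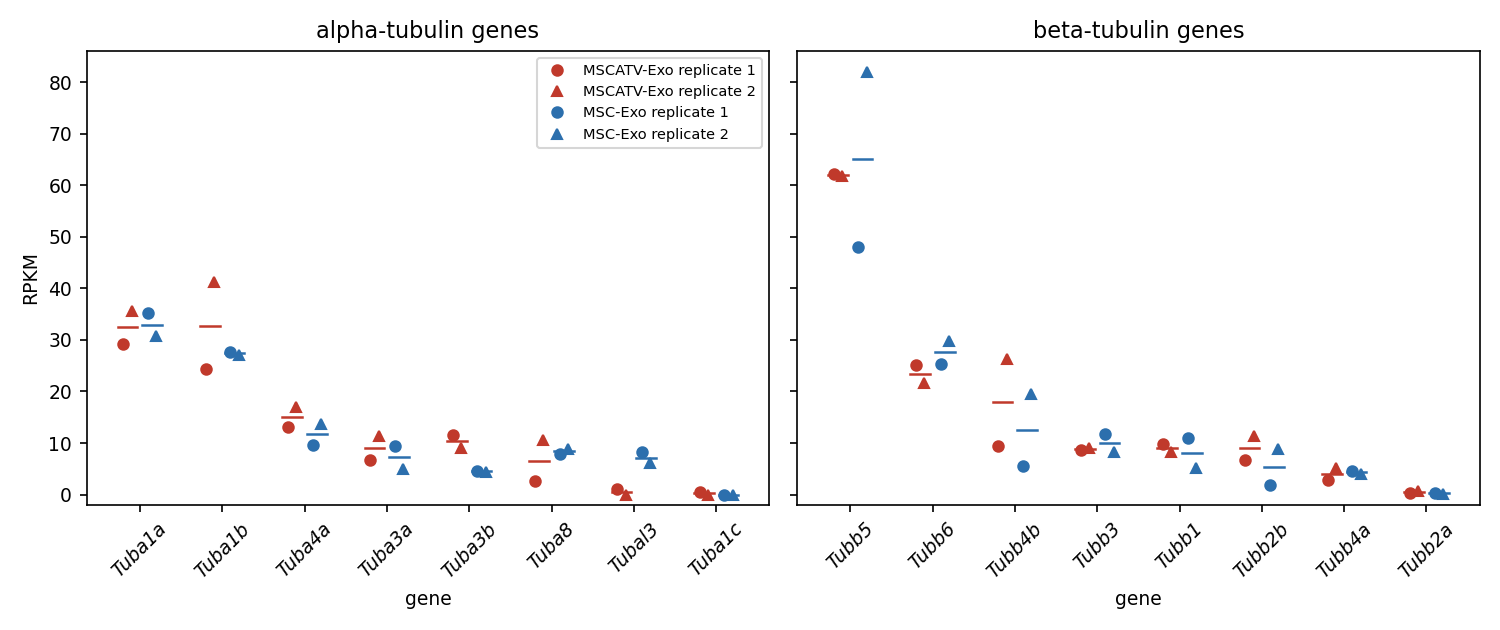
RPKM of 8 alpha-tubulin genes (left panel) and 8 beta-tubulin genes (right panel) in each library, MSCATV-Exo in red left of MSC-Exo in blue, with group means as short lines. Tuba1a, Tuba1b and Tubb5 lead their families, Tubb5 spans 48.1 to 82.0 RPKM in MSC-Exo, and Tuba1c and Tubb2a lie near 0.

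Stmn1, the stathmin gene, was the only 1 of the 8 with a negative log2 fold change with TMM factors. With total-count scaling Tuba1a (-0.02) and Tubb5 (-0.07) were negative too. Stmn1 lies on chromosome 5 at 152680412 to 152686807 (plus strand). Its counts were 59 and 73 in MSCATV-Exo and 142 and 79 in MSC-Exo, with levels of 7.84 and 10.3 RPKM in MSCATV-Exo and 21.0 and 11.7 RPKM in MSC-Exo. Both MSCATV-Exo libraries were below both MSC-Exo libraries, but MSC-Exo replicate 2 lay close to the MSCATV-Exo libraries. The log2 fold change was -0.75 ± 0.50 (SE), and it was -0.28 without MSC-Exo replicate 1 and -1.10 without MSC-Exo replicate 2. A lncRNA on the opposite strand at its end, LOC108351044, had 86 and 11 counts in MSCATV-Exo and 43 and 58 in MSC-Exo.

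The dynein members behaved unlike each other in level. Dync1li2 encodes a light intermediate chain, which joins the dynein motor to its cargo adaptors (chromosome 19, 740007 to 762897, plus strand). It had 1864 and 2159 counts in MSCATV-Exo and 1423 and 1321 in MSC-Exo, with levels of 68.7 and 84.5 RPKM in MSCATV-Exo and 58.3 and 54.0 RPKM in MSC-Exo. Both MSCATV-Exo libraries were above both MSC-Exo libraries, with a log2 fold change of 0.55 ± 0.18 (SE) and 0.46 to 0.63 with a library left out.

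Dync1h1 encodes the heavy chain that holds the motor itself, and its long transcript collected many reads at a low level per length. It lies on chromosome 6 at 134958854 to 135085769 (plus strand). Its counts were 474 and 617 in MSCATV-Exo and 436 and 434 in MSC-Exo, with levels of 5.58 and 7.72 RPKM in MSCATV-Exo and 5.71 and 5.68 RPKM in MSC-Exo. The groups overlapped in RPKM and did not overlap in TMM-scaled CPM, where the values were 86.8 and 110 CPM in MSCATV-Exo and 78.5 and 79.2 CPM in MSC-Exo. Its log2 fold change of 0.32 ± 0.25 (SE) was 0.14 when MSCATV-Exo replicate 2 was left out and 0.48 when replicate 1 of that group was.

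Axonemal dynein heavy chains, the motors of beating cilia, give a second yardstick of like transcript length, chosen after the values were seen. The 12 rows with that description had a median of 4.21 and 4.57 RPKM in MSCATV-Exo and 4.68 and 4.64 RPKM in MSC-Exo, and 2, 2, 4 and 5 of them stood above Dync1h1 in MSCATV-Exo replicates 1 and 2 and MSC-Exo replicates 1 and 2. Dync1h1 was 1.33 and 1.69 times their median in MSCATV-Exo and 1.22 times in both MSC-Exo libraries. Dnah17, the highest of them, reached 6.14 and 9.09 RPKM in MSCATV-Exo and 7.44 and 9.47 RPKM in MSC-Exo. In every library the level of Dync1h1 lay inside the range of these heavy chains of ciliated cells.

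Of the 9 other cytoplasmic dynein subunit genes, 4 were higher and 5 lower in MSCATV-Exo by sign, beside 49.4% of all tested genes higher. By edgeR and DESeq2 0 of the 9 were called, beside 0.0% and 0.317% of all tested genes. The median of their log2 fold changes was -0.21, beside -0.01 for all tested genes. By edgeR 1 (Dynll2) had an unadjusted p under 0.05, beside 3.69% of all tested genes. The light chain genes Dynll2 and Dynll1, whose products also serve in complexes without dynein, stood well above Dync1h1. Dynll2 had 56.7 and 82.5 RPKM in MSCATV-Exo and 55.7 and 43.0 RPKM in MSC-Exo, and Dynll1 had 33.2 and 47.9 RPKM in MSCATV-Exo and 27.8 and 31.2 RPKM in MSC-Exo. Their log2 fold changes were 0.59 ± 0.25 and 0.55 ± 0.39 (SE). Dynlrb1, a roadblock-type light chain gene, had 17.4 and 14.7 RPKM in MSCATV-Exo and 25.6 and 32.4 RPKM in MSC-Exo, and its log2 fold change was -0.74 ± 0.50 (SE). Dync1li1, like Dync1li2 a light intermediate chain gene, stood at 5.47 and 8.40 RPKM in MSCATV-Exo and 5.21 and 5.21 RPKM in MSC-Exo. That is 0.913 to 1.09 times Dync1h1. Its log2 fold change was 0.50 ± 0.61 (SE). The intermediate chain genes Dync1i1 and Dync1i2 had log2 fold changes of 0.80 ± 0.61 and -0.21 ± 0.57 (SE), and the Tctex-type light chain genes Dynlt1 and Dynlt3 of -0.57 ± 0.60 and -1.43 ± 0.94 (SE). The groups overlapped for these 4 genes. Dynlrb2 had 0 and 11 counts in MSCATV-Exo and 11 and 4 in MSC-Exo. Dync1li2 was 9.52 to 12.3 times Dync1h1 per unit length in the 4 libraries.

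**Figure D3:**
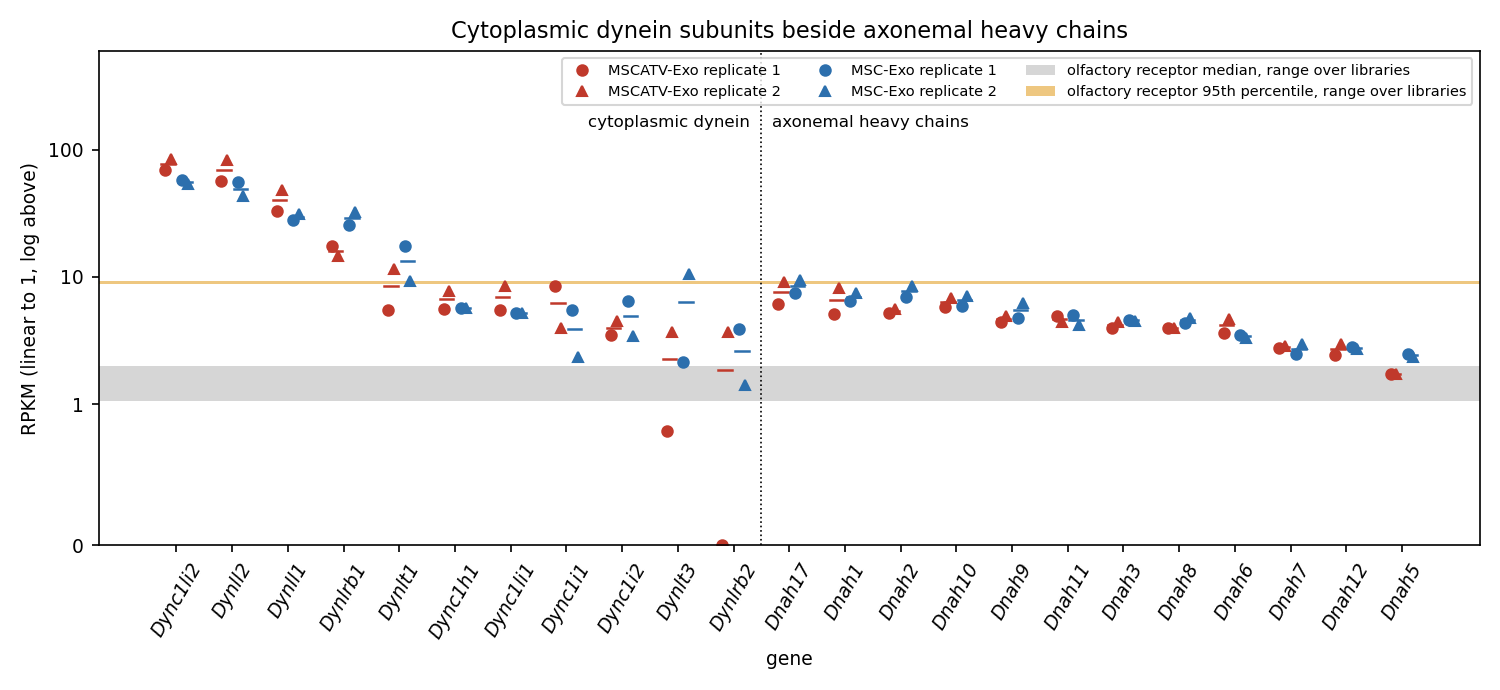
RPKM (linear to 1, logarithmic above) of the cytoplasmic dynein subunit genes and 12 axonemal heavy chain genes in each library, MSCATV-Exo in red left of MSC-Exo in blue, with group means as short lines and the olfactory receptor bands of the level plot. Dync1li2, Dynll2, Dynll1 and Dynlrb1 lie above the orange band in all libraries, and Dync1h1 lies among the axonemal heavy chains.

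By edgeR's quasi-likelihood test with Benjamini-Hochberg adjustment, 0 of the 8 and 0 of 33480 genes tested (0.0%) had an adjusted p under 0.05, while 2 of the 8 and 3.69% of all genes had an unadjusted p under 0.05. Both members, Map4 and Dync1li2, were higher in MSCATV-Exo, as were 1.71% of all genes. DESeq2 called the same 2 genes, where it called 0.317% of all genes in either direction and 0.152% of all genes as higher. In the authors' deposited table Map4, Map1b, Stmn1 and Dync1li2 had a q-value under 0.05, which is 4 of the 8, where 34.3% of its 38021 genes did. Its 3 higher members stood beside 12.4% of genes and its 1 lower member beside 21.9%. In TMM-scaled CPM 5 of the 8 had groups without overlap (33.5% of all tested genes), 4 higher (16.1%) and 1 lower (17.4%). In RPKM 4 of the 8 did (33.7%), 3 higher (12.8%) and 1 lower (20.9%). By sign 7 of the 8 were above 0 (49.4%), with a median log2 fold change of 0.33. With total-count scaling 5 of the 8 were above 0, beside 14352 of the 33480 tested genes. Because the members were proposed from this comparison, nothing is read from these counts. The authors' deposited table gives log2 ratios of mean RPKM of 0.43 for Map4, 0.45 for Dync1li2 and -0.85 for Stmn1.

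Map4, Dync1li2 and the 3 tubulin genes belong to the most abundant protein-coding genes, most of which had positive values. Of 348 tested protein-coding genes with a mean above 20 RPKM, 263 (75.6%) had a positive log2 fold change, with a median of 0.24, and 50.9% had groups without overlap; 42.5% of the 348 had both MSCATV-Exo libraries higher. Of the 5 members above that level, Map4 and Dync1li2 did, both higher. With total-count scaling 229 of the 348 were positive and their median was 0.14. All 5 members had a positive value with TMM factors, and Tuba1a and Tubb5 turned negative with total-count scaling, which moved the median of all tested genes to -0.11 from -0.01. Among the 348 genes, Dync1li2 ranked 62 and Map4 ranked 68 by log2 fold change, so 82.2% and 80.5% of abundant genes had a smaller value. Tuba1b was above 61.2% of them, Tuba1a above 31.0% and Tubb5 above 26.7%. The part that this shift of abundant genes plays in the Map4 and Dync1li2 differences was not tested.

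**Figure D4:**
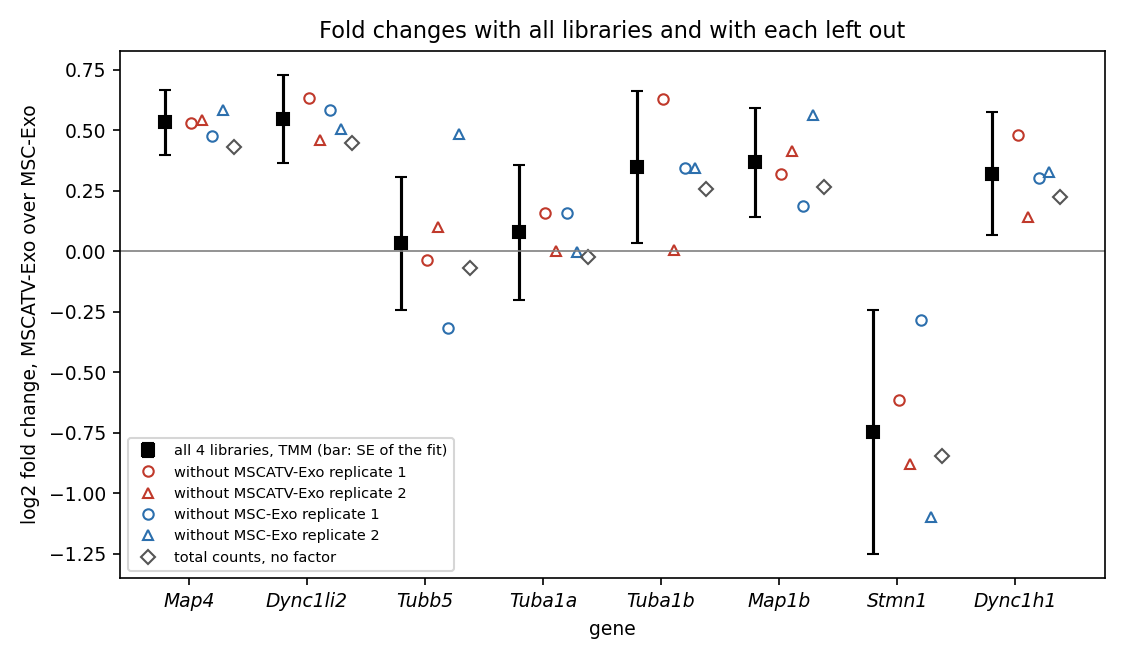
Log2 fold change, MSCATV-Exo over MSC-Exo, of the 8 genes with all 4 libraries (black squares, bars are the SE of the fit), with each library left out (red and blue open symbols) and with total-count scaling (grey diamonds). Map4 stays between 0.48 and 0.58 and Dync1li2 between 0.46 and 0.63 with a library left out, while Tubb5 spans -0.32 to 0.48.

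The genes whose profile over the 4 libraries was closest to Map4 were outside the group. Over 8911 genes with a mean of at least 100 counts, the smallest root mean square difference from Map4 in 4 log2 deviations was 0.0142 for Slmap, 0.0178 for LOC102550367 and 0.0180 for Slc22a8. Dync1li2 ranked 126 at 0.0925, Map1b 286 at 0.126 and Tubb5 3388 at 0.335. The likeness is a description over 4 libraries scaled in the same way.

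The wider microtubule machinery was described with 109 further genes in 11 roles. Of 105 that passed the filter, edgeR called 0 higher and 0 lower, DESeq2 called 0, and 8 had an unadjusted p under 0.05, beside 3.69% of all tested genes. By sign 60 (57.1%) were higher and 45 lower in MSCATV-Exo, beside 49.4% of all tested genes higher. Their median log2 fold change was 0.09, beside -0.01 for all tested genes. With total-count scaling 51 were higher and the median was -0.022, beside -0.11 for all tested genes. In TMM-scaled CPM 37 of the 105 had groups without overlap, of which 28 were higher and 9 lower in MSCATV-Exo, beside 16.1% of all tested genes higher and 17.4% lower. In RPKM 32 of the 105 did, 19 higher and 13 lower, beside 12.8% and 20.9% of all tested genes. The split by direction thus depended on the scaling. Above the olfactory receptor 95th percentile in all libraries stood 13 of the 109 (11.9%), beside 3.06% of protein-coding genes, and 5 had a mean above 20 RPKM.

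**Figure D5:**
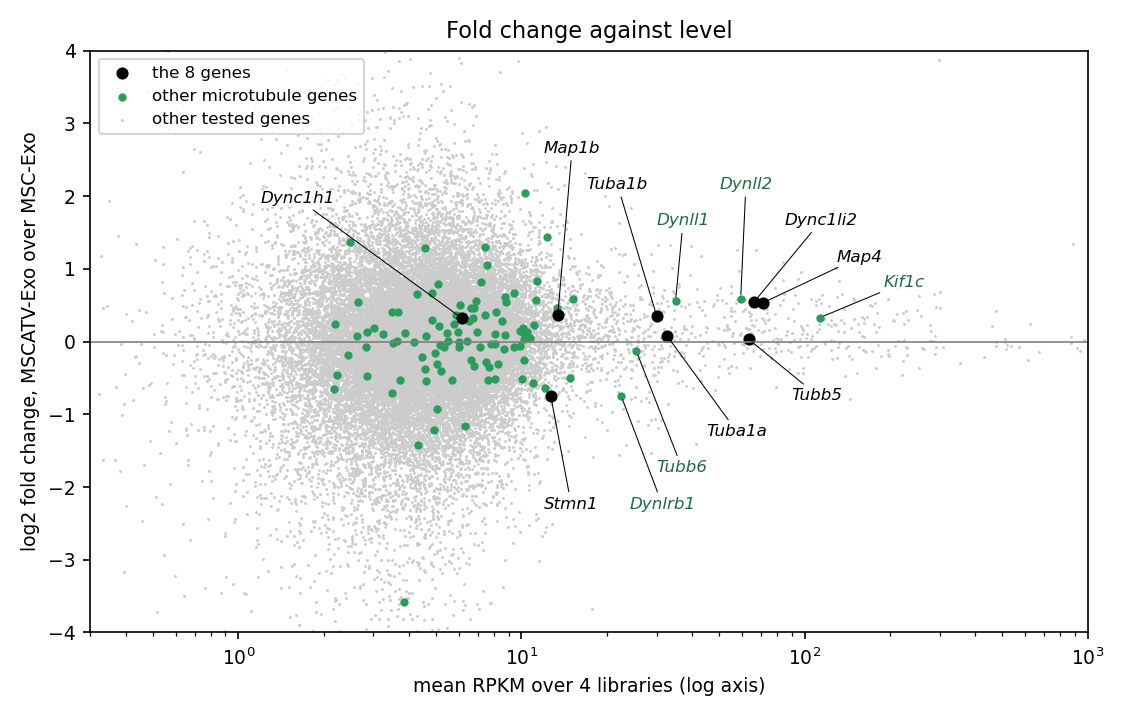
Log2 fold change, MSCATV-Exo over MSC-Exo, against mean RPKM over 4 libraries (log axis) for the 8 genes (black), the other microtubule genes (green) and all other tested genes (grey); 336 of 33480 points lie outside the axes, none of them named. Most green points lie in the broad cloud at a few RPKM, and Map4, Dync1li2 and Tubb5 lie to its right, where the spread of fold changes is small.

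Among those abundant members, Kif1c, a plus-end directed kinesin motor, was the highest of the 109. Kif1c had 4180 and 3927 counts in MSCATV-Exo and 2970 and 3455 in MSC-Exo, with levels of 122 and 122 RPKM in MSCATV-Exo and 96.7 and 112 RPKM in MSC-Exo, with a log2 fold change of 0.33 ± 0.16 (SE). The groups did not overlap, as for Map4, and 59.5% of abundant genes had a smaller value. Tubb6, the class V beta-tubulin, had 261 and 212 counts in MSCATV-Exo and 238 and 279 in MSC-Exo (log2 fold change -0.13 ± 0.30, SE). Dynll2, Dynll1 and Dynlrb1, given above with the dynein subunits, complete the set above 20 RPKM.

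The remaining roles were led by genes nearer to the olfactory receptor level, each named as one of the pair with the highest mean RPKM in its role. For microtubule-associated proteins these were Map1s (log2 fold change -0.64 ± 0.34, SE) and Map1a (0.12 ± 0.24), and for plus-end binding proteins Mapre1 (0.04 ± 0.36) and Clip2 (-0.04 ± 0.34). The stathmin relative Stmn4 was at -0.04 ± 0.56. For gamma-tubulin nucleators the values were 0.18 ± 0.43 for Tubg2 and -0.33 ± 0.31 for Tubgcp6, and for the further tubulins 0.46 ± 0.38 for Tuba4a, 0.40 ± 0.60 for Tuba3a and 0.58 ± 0.60 for Tubb4b. Tubulin folding was led by the chaperonin subunit Cct5 (-0.50 ± 0.39) and the cofactor Tbca (0.42 ± 0.65), and kinesins after Kif1c by the light chain Klc1 (0.13 ± 0.35). None of these genes was called by edgeR or DESeq2.

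Actr1a and Svbp are named by their mean over all 4 libraries, which they owe to MSCATV-Exo, so this choice favours a positive difference. By the MSC-Exo mean alone Actr1a (6.99 RPKM) stood below Dctn2 (12.2 RPKM) and Actr1b (10.7 RPKM) of its role, and Svbp (4.26 RPKM) below Atat1 (8.92 RPKM), Ttl (8.90 RPKM) and Sirt2 (7.43 RPKM). Actr1a, which encodes the filament of dynactin, the partner complex of dynein, had 272 and 320 counts in MSCATV-Exo and 155 and 63 in MSC-Exo (log2 fold change 1.44 ± 0.42, SE; 0.94 to 2.21 with a library left out). The other dynactin gene of the pair, Dctn3, had 37 and 118 counts in MSCATV-Exo and 55 and 31 in MSC-Exo, so its groups overlapped. Svbp, which encodes the partner of the enzymes that remove the last tyrosine of alpha-tubulin, had 93 and 69 counts in MSCATV-Exo and 22 and 17 in MSC-Exo (2.05 ± 0.69, SE; 1.80 to 2.27 with a library left out). Sirt2, a tubulin deacetylase, was at 0.55 ± 0.41. Both Actr1a and Svbp had an adjusted p of 1.00 by edgeR and neither was called by DESeq2. Svbp stood at 18.3 and 14.4 RPKM in the MSCATV-Exo libraries, above the olfactory receptor 95th percentile, and below it in both MSC-Exo libraries.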

How the data were processed

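RNA of 2 MSCATV-Exo and 2 MSC-Exo libraries was sequenced by the submitters. Per the submitters' processing notes, reads were aligned with TopHat2 to the rat genome (rn6, Rnor_6.0); the counter and the annotation release are not given in the sources used here. The authors deposited whole-number counts per gene and RPKM, and their RPKM equals counts over length and library total within a relative difference of 5.15e-06. Their deposited comparison gives log2 ratios of mean RPKM, p-values and q-values from a test that is not stated.

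The count test was edgeR's quasi-likelihood F test (edgeR 4.0.16, R 4.3.3) after filterByExpr and TMM scaling, with p-values adjusted by Benjamini-Hochberg over all 33480 genes and a threshold of 0.05; it was tested on simulated data. The common biological coefficient of variation was 0.559. SE is the coefficient over the root of F. CPM are scaled with TMM factors. Alternatives used DESeq2 1.42.0, limma 3.58.1 and the settings listed in the closing section. The main fit did not pair the libraries by replicate number, because nothing in the labels says that they are paired. The correlation of replicate differences over genes was 0.0035, which shows little shared shift but cannot show how the libraries were prepared.

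The members and gene lists were chosen with earlier results of these data known. Besides the members, the text names the 2 genes with the highest mean RPKM in each of 11 roles and the 3 genes closest to Map4, except that 1 gene of the rule is not reported here; the other dynein subunits, Tuba1c, Tubb2a, Dctn2, Actr1b, Atat1, Ttl and the axonemal genes were added after their values were seen. Sequences are not shown: the reference tables at hand are of mouse. The ncRNA table held 0 transcripts of the members.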

Additional observations from a re-analysis of the deposited data

How the results depend on the processing

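Depth limits the low genes: 3 counts, the limit that a count of 0 allows, are 0.535 to 0.549 CPM, and that limit covers counting error only. The edgeR count of 0 called genes became 106 with DESeq2, 8 with no filter on low counts and 4 with the replicate number as a block, and stayed 0 in the other fits on all 4 libraries. With a library left out it ranged from 1 to 168, the highest without MSCATV-Exo replicate 2. The cause of these differences was not tested. The count of 0 among the other microtubule genes stayed 0 under all 13 alternatives.

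The median log2 fold change of those genes (0.0903) was -0.022 with total-count scaling, -0.0165 and -0.0227 with limma on log2(RPKM + 1) and log2(RPKM + 0.1) above a mean of 1 RPKM, 0.00983 with limma without that filter, and 0.0495 to 0.137 with a library left out. The median of the 8 genes (0.333) was 0.24 with total-count scaling, 0.192 with limma on log2(RPKM + 1) with or without the filter, 0.206 with log2(RPKM + 0.1), and 0.121 to 0.413 with a library left out; RPKM carries total-count scaling by construction. Over the 13 alternatives Map4 ranged from 0.42 to 0.58 and Dync1li2 from 0.43 to 0.63. Map1b, Tuba1b and Dync1h1 were positive and Stmn1 negative in all 13, and Tuba1a and Tubb5 were positive in 7 and negative in 6. The replicate block moved no member across 0.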
